A study of Canis lupus familiaris with 15 samples.

Results

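The mir-181 family was examined in dog spleens, as the 4 microRNAs mir-181a, mir-181b, mir-181c and mir-181d. They were chosen by name. The 6 hairpins of the family were listed in all 15 tables, and the -1 and -2 copies of mir-181a and of mir-181b were added together, which left 4 of the 277 miRNAs in the tables. All 4 were among the 250 miRNAs with enough reads to be tested (at least 10 counts over the 15 libraries). Small RNA was sequenced from 5 normal spleens, 5 nodular hyperplasias and 5 hemangiosarcomas of the spleen, each being a separate biological replicate. Hemangiosarcoma is a malignant tumor of endothelial cells, and nodular hyperplasia is a benign overgrowth of splenic tissue. The 10 masses were trimmed from spleens of client-owned dogs that had splenectomy, with histopathology of an adjacent piece and CD31 staining for hemangiosarcoma. The normal spleens were archived frozen tissue, so disease state and tissue source cannot be told apart in any comparison with normal spleen. No group received an experimental treatment.

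MicroRNAs are short RNAs that lower the output of messenger RNAs by pairing with them, mainly through the seed near their 5' end. The members of the mir-181 family share the same seed and differ at a few bases outside it. In mouse and human, mir-181a is known for its part in the development of T and B lymphocytes and for setting the sensitivity of the T cell receptor, and mir-181b for limiting NF-kB signalling in endothelium.

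The hairpins come from 3 places in the genome. In the RefSeq annotation of the dog assembly UU_Cfam_GSD_1.0, in which 6 of 6 hairpins were found by symbol, mir-181a-1 and mir-181b-1 lay next to each other with PTPRC as the nearest protein-coding gene. PTPRC encodes CD45, the phosphatase on the surface of leukocytes. Hairpins mir-181a-2 and mir-181b-2 lay next to each other within NR6A1, which encodes an orphan nuclear receptor, and also within LOC102152471. Hairpins mir-181c and mir-181d lay next to each other, with mir-23a and mir-27a as the next miRNAs and NANOS3, a germ cell gene, as the nearest protein-coding gene. The deposited counts were made with another build, canFam3, so no coordinates are given.

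Mature counts per library, the reads on annotated mature sequences, were between 3040736 and 7548062. Levels are in counts per 1e6 (CPM) of the library total multiplied by the library's TMM factor, a scaling that assumes that most miRNAs are alike between libraries. Normal spleens had factors of 0.494 to 1.05, against 0.758 to 1.62 in the masses. In whole tissue, fewer cells of a type and less RNA per cell cannot be told apart. Marker miRNAs of several cell types differed between the groups. The summed level of the 5 lymphocyte miRNAs was 10889.8 to 15589 CPM in normal spleen, 16052 to 32226 CPM in nodular hyperplasia and 2776 to 10096 CPM in hemangiosarcoma. That of the 3 endothelial miRNAs was 2746 to 3687 CPM, 2079.6 to 4609.7 CPM and 3908 to 18630.1 CPM in the same order, and that of the 2 smooth muscle miRNAs 344278 to 1049640 CPM, 64831 to 205554 CPM and 80332 to 507524 CPM. A sum above 1e6 can arise because the divisor is the library total times a TMM factor, which was as low as 0.494 in normal spleen. No marker tested on these lists was at 0 in any library.

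The family was dominated by mir-181a, which supplied 84.4% to 95.5% of the mature counts of the family in a library. Its mature counts were 10532 to 72686 per library, those of mir-181b 754 to 1952, those of mir-181c 340 to 1173 and those of mir-181d 318 to 1100. By mean level among the 250 miRNAs, mir-181a ranked 15 in normal spleen, 20 in hemangiosarcoma and 24 in nodular hyperplasia. The other members ranked between 80 and 121. These ranks compare counts of mature miRNAs, which are of nearly the same length.

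With TMM scaling, levels of mir-181a were lower in both kinds of mass than in normal spleen. In normal spleen, replicates 1 to 5 had 13757, 8847, 9992, 10230.1 and 11735 CPM of mir-181a. In hemangiosarcoma they had 7988, 7547, 2565, 5959 and 4765 CPM. In nodular hyperplasia they had 4497, 3138, 6396, 4614 and 5970 CPM. All 5 normal spleens were above all 10 masses, the masses of both kinds overlapped, and hemangiosarcoma replicate 3 was the lowest library. Group means were 10912 ± 1894 CPM in normal spleen, 5765 ± 2202 CPM in hemangiosarcoma and 4923 ± 1297 CPM in nodular hyperplasia (SD, n = 5 each).

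For mir-181a, the log2 fold change of hemangiosarcoma over normal spleen was -0.92 (SE 0.29, 95% interval -1.53 to -0.31, adjusted p = 0.0315 by edgeR's quasi-likelihood test with Benjamini-Hochberg adjustment over all 250 miRNAs), a level 1.89-fold lower. That of nodular hyperplasia over normal spleen was -1.15 (SE 0.29, 95% interval -1.76 to -0.54, adjusted p = 0.0182 by edgeR), 2.22-fold lower. Hemangiosarcoma and nodular hyperplasia differed by 0.23 (SE 0.29, 95% interval -0.38 to 0.83, adjusted p = 0.571 by edgeR), so the order of these neighbours was not resolved. The comparisons share libraries, each group entering 2 of them.

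Both calls of mir-181a needed a scaling beyond the library total. With DESeq2, which has its own size factors and its own test, both held (-0.95, adjusted p = 0.0103, and -1.21, adjusted p = 0.00172 by DESeq2). With library totals alone, mir-181a had 5665 to 12368 CPM in normal spleen, 2191 to 10016 CPM in hemangiosarcoma and 3579 to 8422 CPM in nodular hyperplasia, and all ranges overlapped. The log2 fold change was then -0.29 for hemangiosarcoma over normal spleen (adjusted p = 0.617 by edgeR) and -0.52 for nodular hyperplasia over normal spleen (adjusted p = 0.312). The median of all 250 miRNAs moved at the same time, from 0.03 to 0.63 and from 0.23 to 0.81. Relative to that median, mir-181a was at -0.95 with TMM and -0.93 with library totals in hemangiosarcoma over normal spleen, and at -1.38 and -1.33 in nodular hyperplasia over normal spleen. A change of scaling moves all miRNAs by nearly the same amount. These relative values were thus nearly fixed by construction and do not bear on the calls. Without hemangiosarcoma replicate 3, the first difference was -0.59 (adjusted p = 0.0740). That call was lost when any of 7 single libraries was left out, which were hemangiosarcoma replicates 3, 4 and 5, nodular hyperplasia replicate 3 and normal spleen replicates 1, 4 and 5. It was also lost with unscaled counts (-0.69, adjusted p = 0.274), with all hairpin reads (-0.74, adjusted p = 0.0667), and when only the libraries compared were fitted (-0.83, adjusted p = 0.0892). A replicate block ended it too (-0.93, adjusted p = 0.0590 by edgeR), although the replicate numbers belong to different dogs and are no pairing. The call in nodular hyperplasia was lost without nodular hyperplasia replicate 2, normal spleen replicate 1 or normal spleen replicate 2, with adjusted p up to 0.0525.

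**Figure D1:**
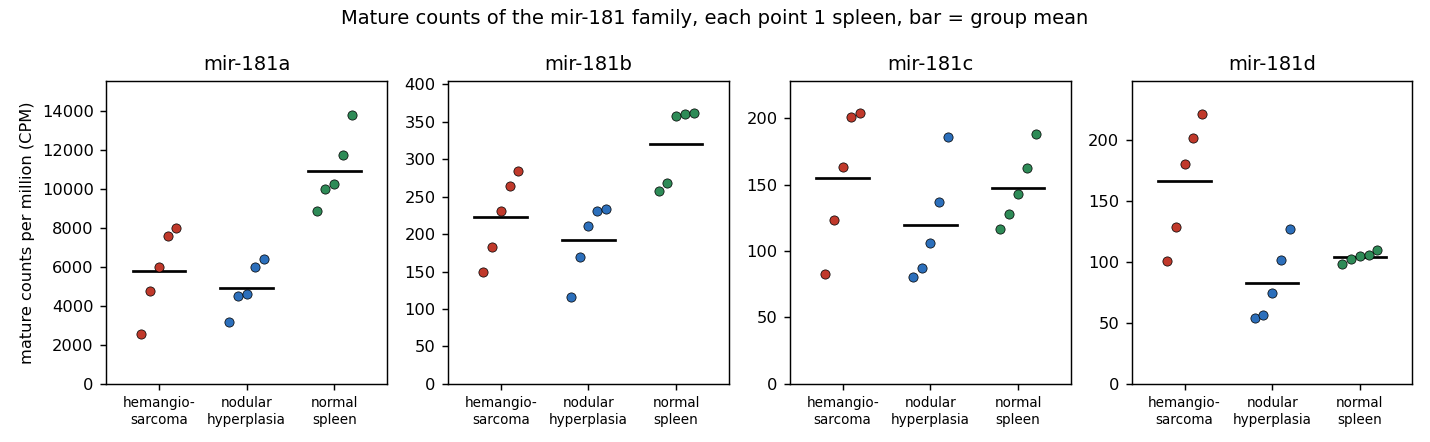
Level of each member in CPM (TMM-scaled, linear axis from 0) by disease state, 1 point per library, set side by side by value, and a bar for the group mean (n = 5 per group). All 5 normal spleens lie above all 10 masses for mir-181a, and hemangiosarcoma has the highest mean for mir-181d.

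The cluster partner of mir-181a, mir-181b, was ordered in the same way, but no difference passed the test. Levels of mir-181b were 361, 258, 268, 360.1 and 358 CPM in normal spleen replicates 1 to 5. They were 231, 182, 264, 284 and 149 CPM in hemangiosarcoma and 232, 116, 169.7, 234 and 211 CPM in nodular hyperplasia. All normal spleens were above all nodular hyperplasias, whereas the range of hemangiosarcoma overlapped both. With library totals all 3 ranges overlapped. The log2 fold change was -0.74 for nodular hyperplasia over normal spleen (SE 0.27, 95% interval -1.30 to -0.17, adjusted p = 0.0719 by edgeR) and -0.53 for hemangiosarcoma over normal spleen (SE 0.27, 95% interval -1.09 to 0.03, adjusted p = 0.178). Hemangiosarcoma over nodular hyperplasia was 0.21 (SE 0.27, 95% interval -0.35 to 0.77, adjusted p = 0.582). The nodular hyperplasia difference passed with DESeq2 (adjusted p = 0.0230) and when only the libraries compared were fitted (adjusted p = 0.0358), but was -0.18 with library totals (adjusted p = 0.740), -0.49 with unscaled counts (adjusted p = 0.363) and -0.47 with exact reads only (adjusted p = 0.478). The hemangiosarcoma difference from normal spleen turned to 0.06 with library totals (adjusted p = 0.945) and was -0.12 with exact reads only (adjusted p = 0.888), -0.30 without hemangiosarcoma replicate 5 and -0.35 without normal spleen replicate 5.

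The level of mir-181d had its highest mean in hemangiosarcoma. Values were 221, 100.4, 128, 201 and 180.4 CPM in hemangiosarcoma replicates 1 to 5. In nodular hyperplasia they were 74.7, 54.0, 127, 101.5 and 56.2 CPM, and in normal spleen 105, 102, 98.6, 109 and 106 CPM. The normal spleens lay close together, and hemangiosarcoma replicate 2 was within their range. In hemangiosarcoma, 4 of 5 libraries were above every nodular hyperplasia. The group means were 166 ± 50.5 CPM in hemangiosarcoma, 104 ± 4.00 CPM in normal spleen and 82.8 ± 31.4 CPM in nodular hyperplasia (SD, n = 5 each).

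The log2 fold change of mir-181d was 1.01 for hemangiosarcoma over nodular hyperplasia (SE 0.31, 95% interval 0.36 to 1.65, adjusted p = 0.0342 by edgeR), a level 2.01-fold higher. It was 0.67 for hemangiosarcoma over normal spleen (SE 0.30, 95% interval 0.03 to 1.32, adjusted p = 0.131) and -0.33 for nodular hyperplasia over normal spleen (SE 0.30, 95% interval -0.97 to 0.31, adjusted p = 0.469), and neither passed. The first call was lost when any of 5 single libraries was left out (hemangiosarcoma replicates 1 and 4 and nodular hyperplasia replicates 1, 2 and 5, with log2 fold changes from 0.88 to 0.97) and with library totals (1.02, adjusted p = 0.0993). The difference from normal spleen passed with library totals (1.27, adjusted p = 0.0423), with all hairpin reads (0.84, adjusted p = 0.0475) and without hemangiosarcoma replicate 3 (0.92, adjusted p = 0.0426).

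The neighbour of mir-181d, mir-181c, had overlapping levels in all 3 groups. They were 188, 128, 117, 143 and 163 CPM in normal spleen, 80.3, 106, 186, 137 and 86.8 CPM in nodular hyperplasia and 200.5, 163, 82.8, 124 and 204 CPM in hemangiosarcoma, in the order of the replicates. The log2 fold changes were 0.07 for hemangiosarcoma over normal spleen (95% interval -0.59 to 0.73, adjusted p = 0.932 by edgeR), 0.38 for hemangiosarcoma over nodular hyperplasia (95% interval -0.29 to 1.04, adjusted p = 0.411) and -0.31 for nodular hyperplasia over normal spleen (95% interval -0.97 to 0.36, adjusted p = 0.520). The width of these intervals means that mir-181c is not shown to be the same in the groups.

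**Figure D2:**
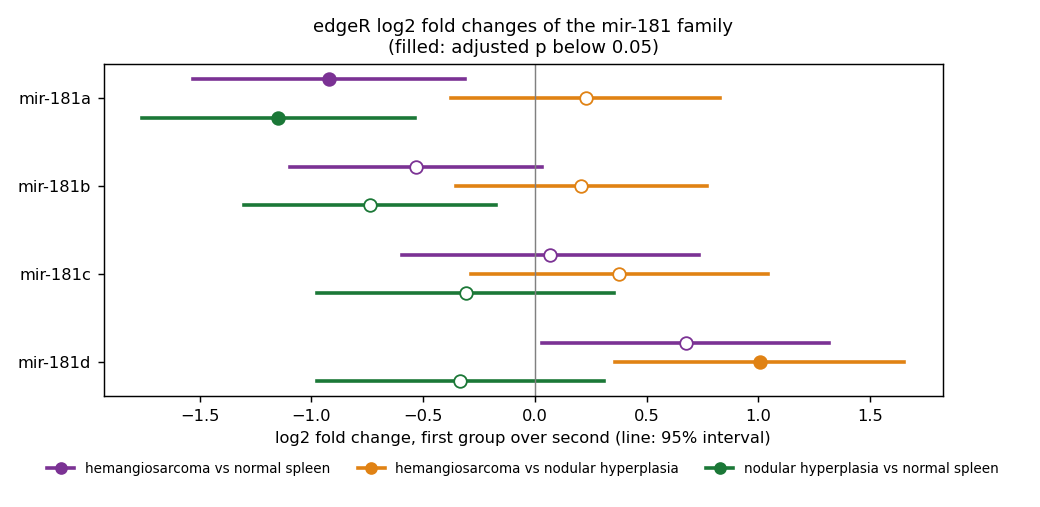
Log2 fold change of the 4 members in the 3 comparisons by edgeR, with 95% intervals as lines, where 0 marks no difference and filled points have an adjusted p below 0.05. The intervals of mir-181a lie below 0 in both comparisons with normal spleen, and those of mir-181d lie above 0 in both comparisons that include hemangiosarcoma, of which the 1 with nodular hyperplasia passed after adjustment.

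The share of members called was close to that of all miRNAs. Of the 250 miRNAs, 22.4% passed between hemangiosarcoma and normal spleen (13.6% higher and 8.8% lower in hemangiosarcoma), against 1 of the 4 members. Between hemangiosarcoma and nodular hyperplasia 18.4% passed (10.4% higher and 8% lower), and between nodular hyperplasia and normal spleen 12.4% passed (5.6% higher and 6.8% lower), each time with 1 of 4 members. Ranges of CPM did not overlap between groups for 12.8%, 8% and 15.6% of the 250 miRNAs in these comparisons, in the same order, and for 1, 0 and 2 of the 4 members. These counts single out no member beyond the rest of the table.

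The balance of higher and lower calls over all miRNAs moved with the scaling. Between hemangiosarcoma and normal spleen, 34 were higher and 22 lower with TMM, 46 higher and 1 lower with library totals, and 23 higher and 1 lower with unscaled counts. Between nodular hyperplasia and normal spleen, these were 14 and 17, 45 and 6, and 11 and 5. A ratio of members within a library does not depend on any scaling, and it was therefore used to compare the members with each other.

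The ratio of mir-181a and mir-181b counts to mir-181c and mir-181d counts compares the clusters of the first pair with the cluster of the second. It was 48.2, 39.5, 47.7, 41.9 and 45.1 in normal spleen replicates 1 to 5. In hemangiosarcoma it was 19.5, 29.3, 13.4, 19.2 and 12.8, and in nodular hyperplasia 30.5, 20.3, 21.0, 20.3 and 43.2. All normal spleens were above all hemangiosarcomas, and nodular hyperplasia spanned the gap between them and overlapped both. On the log2 scale the ratio was 5.47 ± 0.12 in normal spleen, 4.69 ± 0.48 in nodular hyperplasia and 4.17 ± 0.49 in hemangiosarcoma (SD, n = 5 each).

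The difference of this ratio between hemangiosarcoma and normal spleen was -1.30 on the log2 scale, 2.47-fold lower (exact permutation test, two-sided, p = 0.0079, adjusted p = 0.0714 over 9 tests). Since 0.0079 is the smallest p that 252 orderings can give, no single test of this family can pass after adjustment unless others are nearly as small. Between nodular hyperplasia and normal spleen the difference was -0.78 (exact p = 0.0238, adjusted p = 0.107), and between hemangiosarcoma and nodular hyperplasia -0.52 (exact p = 0.0873, adjusted p = 0.131). Without hemangiosarcoma replicate 2, the first difference was -1.48 and the last -0.70, both with an exact adjusted p of 0.0476. That library had the highest ratio of its group. Of 10 omissions of a single library, it was the only 1 after which either difference passed. Exact adjusted p otherwise reached 0.143 for the first and 0.262 for the last. Leaving a library out leaves fewer orderings, so the smallest possible p is larger. Normal spleens stayed above all hemangiosarcomas in each omission, so the first difference always had that smallest p. Whether it passed was then set by the other tests of the family.

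Within clusters the ratios of mature counts overlapped between all groups. The ratio of mir-181a to mir-181b was 28.4 to 38.1 in normal spleen, 19.4 to 37.7 in nodular hyperplasia and 9.70 to 41.4 in hemangiosarcoma, with its lowest value in hemangiosarcoma replicate 3. The log2 differences were -0.46 for hemangiosarcoma against normal spleen, -0.41 for nodular hyperplasia against normal spleen and -0.05 for hemangiosarcoma against nodular hyperplasia, and none passed (exact adjusted p = 0.418, 0.131 and 0.921). Without hemangiosarcoma replicate 3 the first was -0.12, and the last turned to 0.29. Mature counts hold the smaller part of the hairpin reads of mir-181b. Counting all hairpin reads, these differences were -0.75, -0.24 and -0.52 in the same order, and again none passed (exact adjusted p = 0.0536, 0.0536 and 0.0714). The ratio of mir-181c to mir-181d was 1.18 to 1.79 in normal spleen, 1.07 to 1.96 in nodular hyperplasia and 0.614 to 1.62 in hemangiosarcoma. In 3 of 5 hemangiosarcomas mir-181d had more counts than mir-181c, which was seen in none of the other 10 libraries. The log2 differences of hemangiosarcoma were -0.60 from normal spleen and -0.66 from nodular hyperplasia, and neither passed (exact adjusted p = 0.131 for both). The difference from normal spleen was -0.81 without hemangiosarcoma replicate 2 (exact adjusted p = 0.0476) and turned to 0.16 with exact reads only (exact adjusted p = 0.683). It passed in only this 1 of 10 omissions of a single library, with an exact adjusted p of up to 0.262 in the others. Here too a single test could not pass alone, because an omission leaves fewer orderings.

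**Figure D3:**
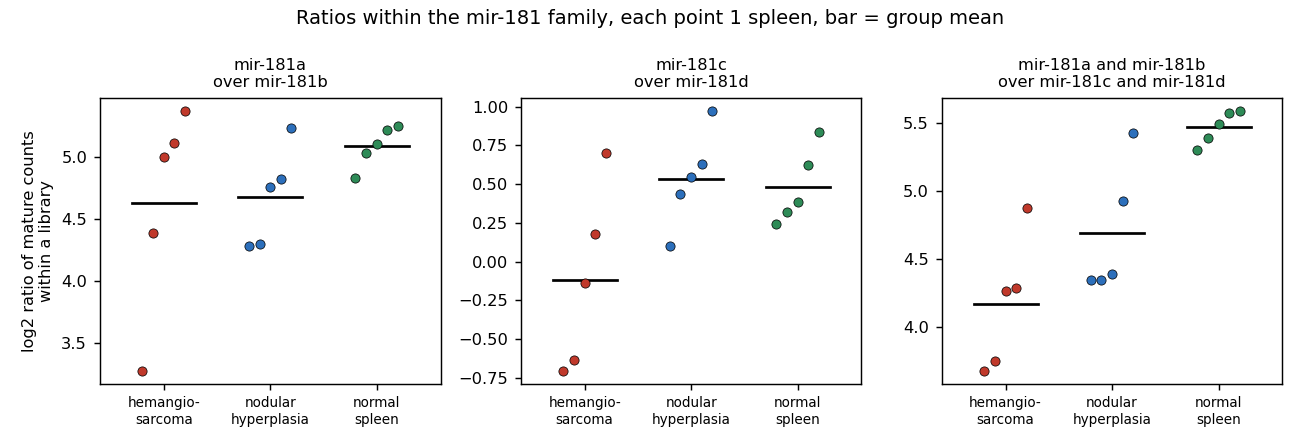
Log2 ratios of mature counts within a library by disease state, 1 point per library, set side by side by value, and a bar for the group mean (n = 5 per group). The ratio of mir-181a and mir-181b to mir-181c and mir-181d separates all normal spleens from all hemangiosarcomas, and the other ratios overlap.

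The copies of mir-181a and of mir-181b could not be told apart by their mature reads. The mature counts of the copies differed by at most 47 for mir-181a (0.309% of both) and by at most 17 for mir-181b (1.90% of both), exact matches differed by at most 1, and no copy had any uniquely assigned read. Reads shared by the copies were thus taken as divided between them, so that the sum counts each read once. All mature reads of mir-181c and mir-181d were uniquely assigned in 15 of 15 libraries. No read was listed on a 3' arm mature sequence of any member in the 15 tables, so the values above are those of the 5' arm. Whether a 3' mature sequence was annotated for these hairpins is not stated. Reads of the 3' arm could therefore be counted among the reads elsewhere on the hairpin.

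Reads elsewhere on the hairpins did differ by copy, which was noticed after the values were seen and was given no test. The ratio of such reads on mir-181a-1 to those on mir-181a-2 was 1.29 to 1.60 in normal spleen, 0.946 to 1.46 in nodular hyperplasia and 1.14 to 1.32 in hemangiosarcoma. Nodular hyperplasia replicate 5 was the only library with fewer on mir-181a-1 (1715 against 1812 reads). The ratio of mir-181b-1 to mir-181b-2 was below 1 in all 15 libraries, from 0.828 to 0.974.

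The members differed widely in where their reads fell. Over all libraries, 77.5% of the hairpin reads of mir-181b lay off its mature sequence, against 22.7% for mir-181c, 11.2% for mir-181d and 7.20% for mir-181a. The median over the 250 miRNAs was 8.35%, and 16 miRNAs had a larger share than mir-181b. The level of mir-181b above therefore counts the smaller part of the reads of its hairpins. With all hairpin reads, its log2 fold change was 0.91 for hemangiosarcoma over nodular hyperplasia (adjusted p = 0.0453 by edgeR) and 0.06 for hemangiosarcoma over normal spleen (adjusted p = 0.945), the latter with the direction turned. The tables do not divide these reads further by position, so reads of the 3' arm could be among them.

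The share of mir-181a reads off the mature sequence was 5.37% to 6.40% in normal spleen, 7.17% to 7.86% in nodular hyperplasia and 6.23% to 11.7% in hemangiosarcoma. Every nodular hyperplasia was above every normal spleen, a difference of 1.73 percentage points (exact permutation test, two-sided, p = 0.0079, adjusted p = 0.0952 over 24 tests). Hemangiosarcoma was 3.65 points above normal spleen (exact p = 0.0159, adjusted p = 0.127). In whole libraries this share was 4.83% to 8.57% in normal spleen, 5.37% to 10.4% in nodular hyperplasia and 7.86% to 22.8% in hemangiosarcoma, and the part of this in the values of mir-181a was not tested. For mir-181b the group means were 75.3 ± 1.14% in normal spleen, 71.9 ± 7.07% in nodular hyperplasia and 78.5 ± 12.6% in hemangiosarcoma (SD, n = 5 each), and no difference passed.

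Exact matches to the mature sequence were a minority for all members. Pooled over libraries they made up 4.31% of mature reads for mir-181a, 13.8% for mir-181c, 18.2% for mir-181b and 31.6% for mir-181d, beside a median of 27.2% over the 250 miRNAs. The tables do not say how the remaining mature reads differed from it. The exact share of mir-181d was 32.6% to 37.1% in normal spleen and 28.3% to 32.1% in nodular hyperplasia, without overlap (difference -4.60 points, exact p = 0.0079, adjusted p = 0.0952). That of mir-181c was 9.77 ± 2.32% in normal spleen, 14.1 ± 3.54% in nodular hyperplasia and 14.9 ± 3.74% in hemangiosarcoma (SD, n = 5 each; exact adjusted p = 0.163 for hemangiosarcoma against normal spleen). None of the 24 differences in position or exactness passed after adjustment. Since 0.0079 is the smallest p that 252 orderings can give, no difference could pass unless several others were nearly as small. This outcome therefore does not show that the groups had the same shares. The counting error of a single share, as the widest Wilson 95% interval of a library, was at most ± 0.530 points for mir-181a and ± 5.23 points for mir-181d, and covers counting error only.

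**Figure D4:**
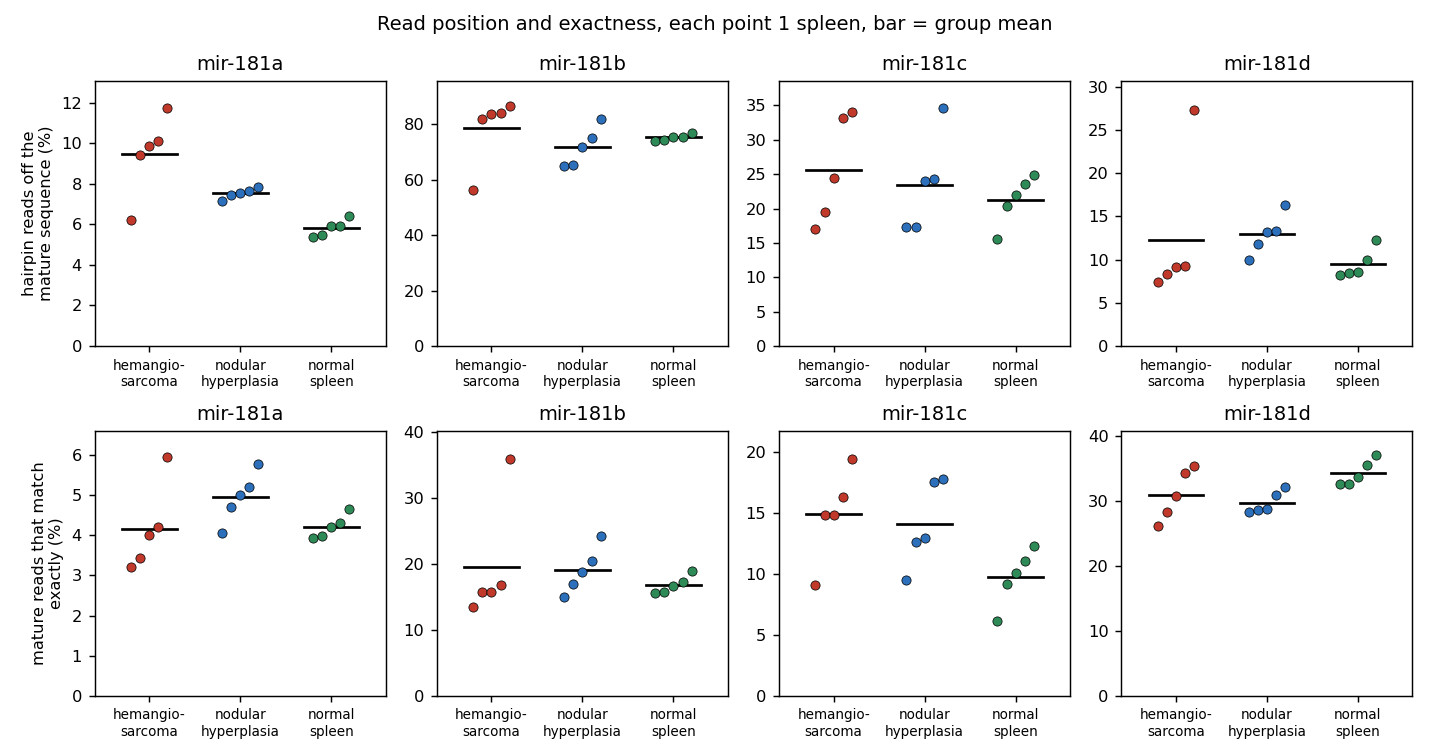
Percent of hairpin reads off the mature sequence and percent of mature reads that match it exactly, for each member by disease state, 1 point per library, set side by side by value, and a bar for the group mean (n = 5 per group). Most reads of mir-181b lie off the mature sequence, and hemangiosarcoma replicate 3 stands apart for mir-181b (56.3% off) and mir-181d (27.3% off).

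The miRNAs whose levels followed each member most closely are given as a description over the 15 libraries, which share 3 disease states and 1 scaling. For mir-181a they were mir-1 (Spearman's rho 0.83), mir-143 (0.82) and mir-28 (0.82), of which mir-1 is a miRNA of striated muscle and mir-143 of smooth muscle. Mean levels of mir-143 were 139107 CPM in nodular hyperplasia, 220789 CPM in hemangiosarcoma and 595461 CPM in normal spleen. With library totals these values of rho were 0.36, 0.375 and 0.63, and the 3 miRNAs ranked 72, 66 and 9 in closeness to mir-181a. For mir-181b the closest were mir-30a (0.80), mir-500 (0.78) and mir-320 (0.74), and for mir-181c they were mir-151 (0.79), mir-130a (0.77) and mir-23a (0.68), the last of these a neighbour of mir-181c in the genome. With library totals rho was 0.33, 0.29 and 0.56 for the first 3 and 0.86, 0.92 and 0.85 for the others. Their ranks in closeness were then 81, 104 and 8 for mir-181b and 4, 2 and 7 for mir-181c.

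For mir-181d the closest were mir-9 (0.91), mir-92b (0.88) and mir-126 (0.83), the last an endothelial miRNA from an intron of EGFL7. Mean levels of mir-126 were 1337 CPM in nodular hyperplasia, 2490.4 CPM in normal spleen and 8048 CPM in hemangiosarcoma. With library totals the values of rho were 0.775, 0.89 and 0.86, and the ranks in closeness 18, 3 and 6. Between members, rho was 0.58 for mir-181a and mir-181b, 0.55 for mir-181c and mir-181d, 0.50 for mir-181a and mir-181c, 0.22 for mir-181b and mir-181d, 0.12 for mir-181a and mir-181d and -0.05 for mir-181b and mir-181c. With library totals these were 0.58, 0.76, 0.58, 0.30, 0.38 and 0.21 in the same order, so the sign of the last turned with the scaling.

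Marker lists are set beside these results by their counts, with TMM scaling. Over all 250 miRNAs, 22 were called lower in hemangiosarcoma against normal spleen with TMM and 1 with library totals. At most 1 of the falls in that comparison given below therefore passed with library totals. In nodular hyperplasia against normal spleen, the numbers called lower were 17 and 6. Of the 5 lymphocyte miRNAs, all fell in hemangiosarcoma against normal spleen (median log2 fold change -1.22), as mir-181a did. The lymphocyte miRNA mir-150 differed by -1.87 (SE 0.42, adjusted p = 0.00595 by edgeR) and mir-155, which is induced in activated lymphocytes, by -1.24 (SE 0.36, adjusted p = 0.0209). In nodular hyperplasia against normal spleen, where mir-181a also fell, only mir-28 of these 5 passed, being lower (-1.23, adjusted p = 0.0342), and the median of the list was 0.99. Against nodular hyperplasia, 4 of the 5 fell in hemangiosarcoma (median -2.22), while mir-181a differed by 0.23. The part of lymphocytes in the level of mir-181a was not tested.

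Muscle miRNAs passed mainly in the comparison of nodular hyperplasia with normal spleen, where mir-181a fell. Both smooth muscle miRNAs, mir-143 (-2.10, adjusted p = 0.0172 by edgeR) and mir-145 (-1.58, adjusted p = 0.0182), fell in nodular hyperplasia against normal spleen, as did both striated muscle miRNAs, mir-1 (-3.30, adjusted p = 0.0172) and mir-133a (-2.49, adjusted p = 0.0342). In hemangiosarcoma against normal spleen, mir-143 fell (-1.43, adjusted p = 0.0442), while mir-145 (-0.74, adjusted p = 0.201), mir-1 (-1.94, adjusted p = 0.0783) and mir-133a (-0.46, adjusted p = 0.679) did not pass. None of the 4 passed in hemangiosarcoma against nodular hyperplasia, where they differed by 0.67, 0.83, 1.36 and 2.04 in the order mir-143, mir-145, mir-1 and mir-133a (adjusted p = 0.340, 0.144, 0.198 and 0.0532), beside 0.23 for mir-181a. The part of muscle tissue in the level of mir-181a was not tested.

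Of the 3 endothelial miRNAs, mir-126 rose in hemangiosarcoma against nodular hyperplasia (2.59, SE 0.41, adjusted p = 0.000735 by edgeR), the comparison in which mir-181d rose, while mir-221 (0.33, adjusted p = 0.556) and mir-222 (-0.21, adjusted p = 0.828) did not pass. Against normal spleen, mir-126 (1.69, adjusted p = 0.00761) and mir-221 (1.36, adjusted p = 0.0245) rose, and mir-222 (1.59, adjusted p = 0.0918) did not pass. The part of endothelial cells in the level of mir-181d was not tested.

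Of 10 miRNAs known for immune signalling, 2 rose and 3 fell in hemangiosarcoma against normal spleen (median -0.0037), 1 rose and 4 fell against nodular hyperplasia (median -0.40), and 1 rose in nodular hyperplasia against normal spleen (median 0.52). Among them mir-146a, which dampens NF-kB signalling, fell by 1.17 on the log2 scale against normal spleen (SE 0.30, adjusted p = 0.0118 by edgeR) and by 0.92 against nodular hyperplasia (SE 0.30, adjusted p = 0.0424). The angiogenic and neuronal miRNA mir-132 rose by 3.74 (SE 0.63, adjusted p = 0.00163) and 3.39 (SE 0.62, adjusted p = 0.00137). The median over all 250 miRNAs was 0.03, -0.07 and 0.23 in the 3 comparisons.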

How the data were processed

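Per the labels and the study's methods, small RNA from 15 dog spleens was sequenced on an Illumina instrument, checked with FastQC, trimmed, filtered and counted in CLCbio against dog hairpins of miRBase. The build in the submitters' processing notes is canFam3. The FastQC and CLCbio versions were not stated. The values deposited by the authors are raw read counts per hairpin, not normalized, divided into mature 5', mature 3' and other reads. Each table was assigned to its sample by the sample identifier and disease state in its sheet name. A further 45 numeric columns, 3 from each table, were not used.

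Mature 5' and 3' counts were added and copies of a hairpin merged by name. A hairpin that a table did not list was set to 0. A total of 10 counts across libraries was required, which 250 miRNAs met. The quasi-likelihood test of edgeR 4.0.16 (R 4.3.3) was run on them with TMM factors and group means, all libraries in 1 fit. P-values were adjusted by Benjamini-Hochberg over the 250 miRNAs of a comparison, with a threshold of 0.05. The fit was tested on simulated data with known changes. Ratios had a pseudocount of 0.5 on each count, and ratios and shares were compared by exact permutation with Python 3.11.15 and scipy 1.17.1. Shares needed at least 20 reads in each library. Likeness was Spearman's rho of log2(CPM + 1). Alternatives were other scalings, DESeq2 1.42.0, limma 3.58.1 (voom), other filters, other reads, 1 copy only, only the libraries compared, a replicate block, a pseudocount of 1 and leaving out each library.

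Named were the 4 members and their copies, the 3 other miRNAs most like each member, the lists of immune signalling miRNAs and cell type markers, and others only where a result turned on them. Members and lists were chosen with earlier results of these data known. Of the myeloid (1 miRNA), erythroid (2 of 3 tested) and epithelial (4) lists, the numbers higher and lower were 0 and 0, 0 and 1, and 1 and 1 in hemangiosarcoma against normal spleen, 0 and 0, 0 and 0, and 1 and 2 against nodular hyperplasia, and 0 and 0, 0 and 0, and 1 and 0 in nodular hyperplasia against normal spleen. Mature sequences were not used here.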

Additional observations from a re-analysis of the deposited data

Results flagged for a closer look

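Levels, ratios and read shares of the members were examined for libraries far from the rest of their group. Of 45 groups of 5 libraries, 3 held a value beyond Dixon's 95% limit. Chance alone gives about 1 in 20 groups if the groups are independent. These groups share libraries and reads, so the number of flags cannot be set against that rate. All 3 were hemangiosarcoma replicate 3, and those of mir-181b concern reads of the same hairpins, so they are not separate flags. Its share of mir-181b hairpin reads off the mature sequence was 56.3%, against 82.0% to 86.8% in the other hemangiosarcomas. Its share of mir-181b mature reads that match exactly was 36.0%, against 13.5% to 16.8%. Its share of mir-181d hairpin reads off the mature sequence was 27.3%, against 7.38% to 9.24%. The same library had the lowest mir-181a level of all 15 (2565 CPM), and its ratio of mir-181a to mir-181b was 9.70. The cause was not tested.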

How the results depend on the processing

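With library totals, mir-181a was -0.29 (log2 fold change) between hemangiosarcoma and normal spleen and -0.52 between nodular hyperplasia and normal spleen, and with unscaled counts -0.69 and -0.86, none past the threshold. With library totals, mir-181b turned to 0.06 between hemangiosarcoma and normal spleen, mir-181c to 0.34 and mir-181d to 0.25 between nodular hyperplasia and normal spleen, and mir-181d passed between hemangiosarcoma and normal spleen (1.27). The mir-181d call between hemangiosarcoma and nodular hyperplasia was lost with library totals (1.02) and unscaled counts (0.98). The median of all miRNAs also moved, to 0.63, -0.12 and 0.81 with library totals and to 0.20, -0.12 and 0.44 with unscaled counts in the 3 comparisons. Relative to the median with library totals, the values that turned were -0.57, -0.47 and -0.55. A change of scaling leaves such relative values nearly the same by construction. The cause of the turns and of the other changes was not tested. With all hairpin reads, mir-181a was -0.74 (not passed) and mir-181b 0.057 (turned) between hemangiosarcoma and normal spleen, mir-181d passed there (0.84), and mir-181b passed between hemangiosarcoma and nodular hyperplasia (0.91). With exact reads only, mir-181a turned to -0.048 between hemangiosarcoma and nodular hyperplasia, mir-181c to 0.34 between nodular hyperplasia and normal spleen, and the log2 ratio of mir-181c to mir-181d to 0.16 between hemangiosarcoma and normal spleen. Fitting only the libraries compared ended the calls of mir-181a in hemangiosarcoma over normal spleen (-0.83) and of mir-181d (1.10) and let mir-181b pass between nodular hyperplasia and normal spleen (-0.74), as DESeq2 did (-0.78).

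Counts of miRNAs called were 56, 46 and 31 in the 3 comparisons. Between hemangiosarcoma and normal spleen the count was 24 with unscaled counts. Between hemangiosarcoma and nodular hyperplasia it was 22 with library totals, 22 with only the libraries compared and 29 with the replicate block. Between nodular hyperplasia and normal spleen it was 51 with library totals, 16 with unscaled counts, 52 with DESeq2 and 56 with only the libraries compared.

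The replicate numbers belong to different dogs. For 1 of 15 libraries, the best-correlated library in each of the other groups had its own number. Same-numbered libraries had r of -0.33 to 0.32, with 5 of 15 pairs over 0.1. With a replicate block, mir-181a was -0.93 in hemangiosarcoma over normal spleen and mir-181d 1.02 in hemangiosarcoma over nodular hyperplasia, both no longer past the threshold (adjusted p = 0.0590 and 0.0538 by edgeR).

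Leaving out each library in turn gave -1.06 to -0.59 for mir-181a, -0.037 to 0.38 for mir-181c and 0.56 to 0.92 for mir-181d between hemangiosarcoma and normal spleen, 0.88 to 1.35 for mir-181d between hemangiosarcoma and nodular hyperplasia, and -1.25 to -1.02 for mir-181a between nodular hyperplasia and normal spleen. The counts of calls were 36 to 61, 26 to 60 and 4 to 46, the last being 4 without normal spleen replicate 2. For the log2 ratios it gave -0.64 to -0.12 for mir-181a over mir-181b between hemangiosarcoma and normal spleen and -0.23 to 0.29 between hemangiosarcoma and nodular hyperplasia, -0.81 to -0.46 and -0.056 to 0.16 for mir-181c over mir-181d between normal spleen and, respectively, hemangiosarcoma and nodular hyperplasia, and -1.48 to -1.18 and -0.70 to -0.33 for the first over the second pair of members between hemangiosarcoma and, respectively, normal spleen and nodular hyperplasia. Differences in exact share, in percentage points, were -0.50 to 0.18 for mir-181a and -1.42 to 4.21 for mir-181b between hemangiosarcoma and normal spleen, and -3.65 to 1.98 for mir-181b and -0.34 to 2.26 for mir-181c between hemangiosarcoma and nodular hyperplasia. Differences in the share off the mature sequence were -0.56 to 3.79 for mir-181c between nodular hyperplasia and normal spleen, and for mir-181d -0.93 to 4.05 and -4.40 to 0.59 between hemangiosarcoma and, respectively, normal spleen and nodular hyperplasia.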
